A study of Rattus norvegicus with 9 samples.

Results

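The genes described here copy the genome before a cell divides: they encode the factors that license and fire replication origins, the DNA polymerases and their accessory proteins, enzymes that supply deoxynucleotides, and proteins that follow the replication fork. They were chosen as a list of 47 gene symbols, and a gene counted as measured where a probe set of the array was annotated to its symbol and no other. By that rule 42 of the 47 were measured, out of 14217 genes on the array with such a probe set. No probe set of their own was found in the annotation used for Cdc6, Cdc7, Dbf4 and Gins2, and both probe sets of Rrm2 were annotated to Rrm2l1 as well, so these 5 genes are not counted below. Where a gene had several probe sets (9 members), the brightest over the 9 arrays stood for it.

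RNA was measured on Affymetrix 3' arrays in 9 bladder samples of female SD (Sprague Dawley) rats, labelled as 10 weeks old, in 3 groups of 3. The tumors were bladder transitional cell carcinomas (BTCC) that arose after weekly instillation of 20 mg/ml N-methyl-N-nitrosourea (MNU), an alkylating carcinogen, into the bladder for 10 weeks. The adjacent normal tissues (ANT) came from the same 3 rats as the tumors, which had received the same MNU, and the normal bladders from 3 other rats that the series design calls normal. The labels of these last 3 samples carry the MNU text too, and nothing in them settles the point. Values are log2 signals of the MAS5 algorithm, scaled by the authors to a common trimmed mean on each array, and are compared between arrays for 1 gene and never between genes. Signals under 50 (log2 5.64) are called dim, because replicate arrays spread widely there.

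As background, a replication origin is licensed in G1 when the origin recognition complex (ORC), with Cdc6 and Cdt1, loads the ring of Mcm2 to Mcm7, while geminin (Gmnn) holds Cdt1 in check once S phase has begun. Cdc45 and the GINS complex then turn the loaded ring into an active helicase, primase and the polymerases copy the strands, and the clamp Pcna, its loader (replication factor C), Fen1 and Lig1 finish the lagging strand. Many of these genes are transcribed at the boundary of G1 and S phase under E2F factors, so their RNA is used as a sign of cycling cells. The normal urothelium turns over slowly.

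The stretch before the start of each gene was read for E2F sites, because the members are known as E2F targets. Of the 42 measured members, 39 had a promoter window in the RefSeq table (build GRCr8, 250 bases before to 50 after the annotated start), and Orc1, Mcm4 and Rpa3 did not. At least 1 of the E2F words TTTCCCGC, TTTCGCGC, TTTGCCGC and TTTGGCGC, on either strand and with overlapping words counted, stood in 17 of the 39 windows (43.6%), against 716 of 33469 windows of all genes (2.14%). Every one of the 5 windows of the Mcm2 to Mcm7 genes in the table (Mcm2, Mcm3, Mcm5, Mcm6 and Mcm7) held one, as did 3 of the 8 windows of polymerase and primase genes. The CCAAT box (CCAAT, either strand) stood in 25 of the 39 windows (64.1%), against 37.5% of all windows. The word TTTGAA, the cell cycle homology region of genes of mitosis, stood in 3 of the 39 windows (7.69%), against 18.3% of all. A match describes these letters in this window and is no evidence that a factor binds there. The 250 bases before the start are shown for the member with the largest change and a window among the licensing factors (Cdt1), the firing factors (Gins1), the clamp loader (Rfc3) and the enzymes of nucleotide supply (Tk1), and for 2 helicase subunits chosen after their matches were seen (Mcm5 and Mcm6). Sequences run 5′ to 3′ along the gene, and capitals mark E2F words and CCAAT boxes that lie wholly before the start.
Cdt1 (chr19:67528999-67529248, plus strand): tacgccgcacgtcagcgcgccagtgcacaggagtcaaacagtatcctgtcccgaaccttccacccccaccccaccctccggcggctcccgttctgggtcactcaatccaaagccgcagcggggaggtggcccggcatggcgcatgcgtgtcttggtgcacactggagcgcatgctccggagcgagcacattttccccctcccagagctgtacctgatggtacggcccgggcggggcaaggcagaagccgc
Gins1 (chr3:160184670-160184919, plus strand): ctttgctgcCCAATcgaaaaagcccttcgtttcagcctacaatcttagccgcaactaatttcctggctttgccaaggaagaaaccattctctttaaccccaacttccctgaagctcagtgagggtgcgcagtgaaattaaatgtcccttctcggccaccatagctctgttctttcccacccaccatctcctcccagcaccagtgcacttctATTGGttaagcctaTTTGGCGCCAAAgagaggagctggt
Mcm5 (chr19:13488563-13488812, plus strand): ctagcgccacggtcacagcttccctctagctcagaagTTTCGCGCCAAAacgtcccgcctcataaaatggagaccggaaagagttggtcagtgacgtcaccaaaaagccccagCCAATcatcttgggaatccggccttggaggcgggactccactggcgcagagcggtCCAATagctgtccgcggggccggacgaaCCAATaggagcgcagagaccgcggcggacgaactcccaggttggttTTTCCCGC
Mcm6 (chr13:42404353-42404602, minus strand): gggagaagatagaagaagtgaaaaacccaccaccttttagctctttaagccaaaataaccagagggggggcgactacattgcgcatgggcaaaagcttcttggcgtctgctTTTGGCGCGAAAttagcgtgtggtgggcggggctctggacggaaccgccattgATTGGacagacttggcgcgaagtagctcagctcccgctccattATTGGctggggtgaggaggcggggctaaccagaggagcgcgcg
Rfc3 (chr12:5836318-5836567, plus strand): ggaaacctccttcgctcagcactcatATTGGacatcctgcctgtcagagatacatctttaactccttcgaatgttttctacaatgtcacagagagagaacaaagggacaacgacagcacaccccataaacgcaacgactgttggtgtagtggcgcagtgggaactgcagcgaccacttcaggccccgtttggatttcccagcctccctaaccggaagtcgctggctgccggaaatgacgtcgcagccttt
Tk1 (chr10:103544778-103545027, minus strand): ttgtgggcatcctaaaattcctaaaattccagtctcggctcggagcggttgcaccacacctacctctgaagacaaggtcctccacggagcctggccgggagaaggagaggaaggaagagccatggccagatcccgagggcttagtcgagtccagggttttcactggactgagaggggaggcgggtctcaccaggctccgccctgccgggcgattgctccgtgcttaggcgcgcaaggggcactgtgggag
In Mcm5, Mcm6 and Gins1 an E2F word on one strand overlapped an E2F word on the other, and CCAAT boxes lay on the plus strand in Mcm5, on the minus strand in Mcm6 and on both in Gins1. Both E2F words of Cdt1 lay after the start, at bases 8 and 33, the first E2F word of Rfc3 spanned the start from base -3, and Tk1 held neither an E2F word nor a CCAAT box in its window.

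Replication genes were higher in the tumors than in normal bladder, and about as many were higher in the tissue adjacent to the tumors. In tumors against normal bladder, 22 of the 42 members rose and 0 fell (limma, adjusted p under 0.05 over 31042 probe sets), where 13.6% of all 14217 genes rose and 9.95% fell. Their median log2 fold change was 0.94 (0.92 with Orc1 and Chaf1b, dim in normal bladder, at their lower bounds), against 0.05 for all genes, and single members ranged from -0.39 to 3.32. Every tumor array lay above every normal array for 29 members, where 25.7% of all genes did so. In adjacent tissue against normal bladder, 20 members rose and 0 fell, where 13.3% of all genes rose and 11.5% fell. The median member difference was 0.69 on the log2 scale, against 0.01 for all genes, with a range from -0.44 to 3.68. Every adjacent array lay above every normal array for 28 members (24.8% of all genes). Both comparisons use the same 3 normal arrays, so their results are not independent of each other, and their values are given side by side below. The counts by role below stand beside the same shares of all genes, of which 13.6% rose in tumors and 13.3% in adjacent tissue.

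**Figure D1:**
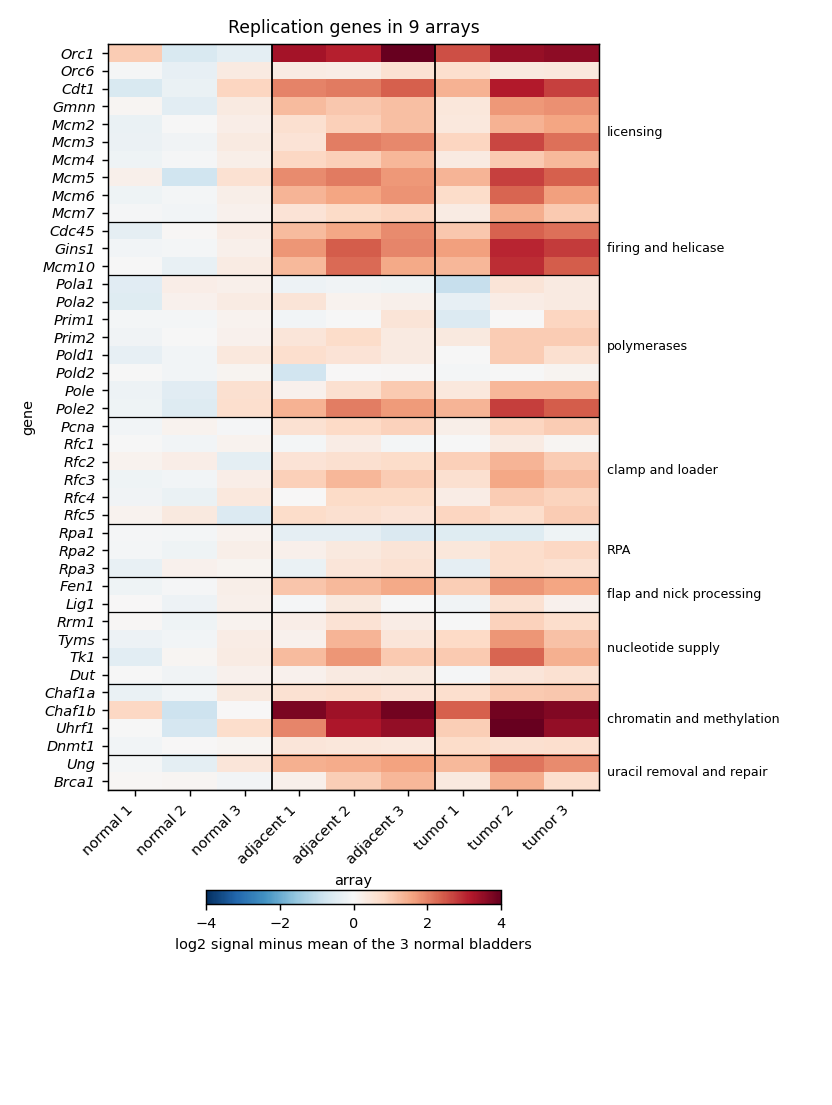
Log2 signal of each of the 42 measured members on each of the 9 arrays, minus that gene's mean over the 3 normal bladders, with genes in rows by role and arrays in columns. Red is higher and blue lower than the normal mean, and the 6 arrays of tumor-bearing rats are red for most licensing and firing genes, while the tumor columns hold both red and blue for Pola1 and Prim1.

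Of the 10 measured licensing factors, 7 rose in tumors and 9 in adjacent tissue, and 0 fell in either. Orc1, the largest subunit of ORC and the one that comes and goes with the cell cycle, had log2 signals of 6.12, 7.04 and 7.13 in tumors 1, 2 and 3, of 6.89, 6.66 and 7.57 in adjacent tissues 1, 2 and 3, and of 4.55, 2.95 and 3.15 in normal bladders 1, 2 and 3. The lowest of the 6 values from tumor-bearing rats was above the highest normal value. Because all normal arrays were dim, the change of Orc1 is given as a bound, at least 2.17-fold higher in tumors (adjusted p = 0.0122) and at least 2.63-fold higher in adjacent tissue (adjusted p = 0.00516). Cdt1, which brings the helicase ring to ORC, stood at 7.84, 9.63 and 9.18 in tumors, 8.45, 8.55 and 8.85 in adjacent tissues and 5.86, 6.21 and 7.32 in normal bladders. Neither tissue overlapped with normal bladder, and tumor 1 was the lowest of the tumors. Cdt1 rose by 2.42 on the log2 scale in tumors (SE 0.54, adjusted p = 0.0253) and by 2.15 in adjacent tissue (SE 0.38, adjusted p = 0.00758).

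Of the 6 genes of the helicase ring, 5 rose in tumors and 6 in adjacent tissue, and differences between their changes were not tested. Mcm5 had log2 signals of 8.37, 9.75 and 9.41 in tumors, 8.91, 9.08 and 8.75 in adjacent tissues and 7.21, 6.20 and 7.61 in normal bladders, a rise of 2.17 in tumors (SE 0.46, adjusted p = 0.0219) and 1.91 in adjacent tissue (SE 0.35, adjusted p = 0.00924). Mcm6 had 9.27, 10.87 and 10.19 in tumors, 9.91, 10.13 and 10.34 in adjacent tissues and 8.37, 8.46 and 8.78 in normal bladders, a rise of 1.57 in tumors (SE 0.38, adjusted p = 0.0304) and 1.59 in adjacent tissue (SE 0.18, adjusted p = 0.00164). For both genes all 6 arrays of tumor-bearing rats lay above the normal arrays, and the SE was larger in tumors, where tumor 1 was lowest, than in adjacent tissue. Mcm3 rose by 1.92 in tumors and 1.51 in adjacent tissue, Mcm2 by 1.13 and 0.93, and Mcm4 by 0.90 and 1.04, and all of these passed in both comparisons (adjusted p from 0.00740 to 0.0480). Mcm7 passed in adjacent tissue (log2 fold change 0.72, SE 0.15, adjusted p = 0.0130) and missed the threshold in tumors (0.94, SE 0.27, adjusted p = 0.0551), although every tumor array was above every normal array.

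Geminin and Orc6, like Mcm7, did not pass in tumors. Gmnn had log2 signals of 8.54, 9.82 and 9.90 in tumors, 9.34, 9.17 and 9.27 in adjacent tissues and 8.15, 7.66 and 8.44 in normal bladders. It rose by 1.18 in adjacent tissue (SE 0.22, adjusted p = 0.00975), and its difference of 1.34 in tumors did not pass (SE 0.39, adjusted p = 0.0549). A second, dimmer Gmnn probe set passed in neither tissue (log2 fold changes of 0.39 and -0.28). Orc6, an ORC subunit, passed in neither, with 0.48 in tumors (SE 0.21, adjusted p = 0.162) and 0.41 in adjacent tissue (SE 0.22, adjusted p = 0.253).

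**Figure D2:**
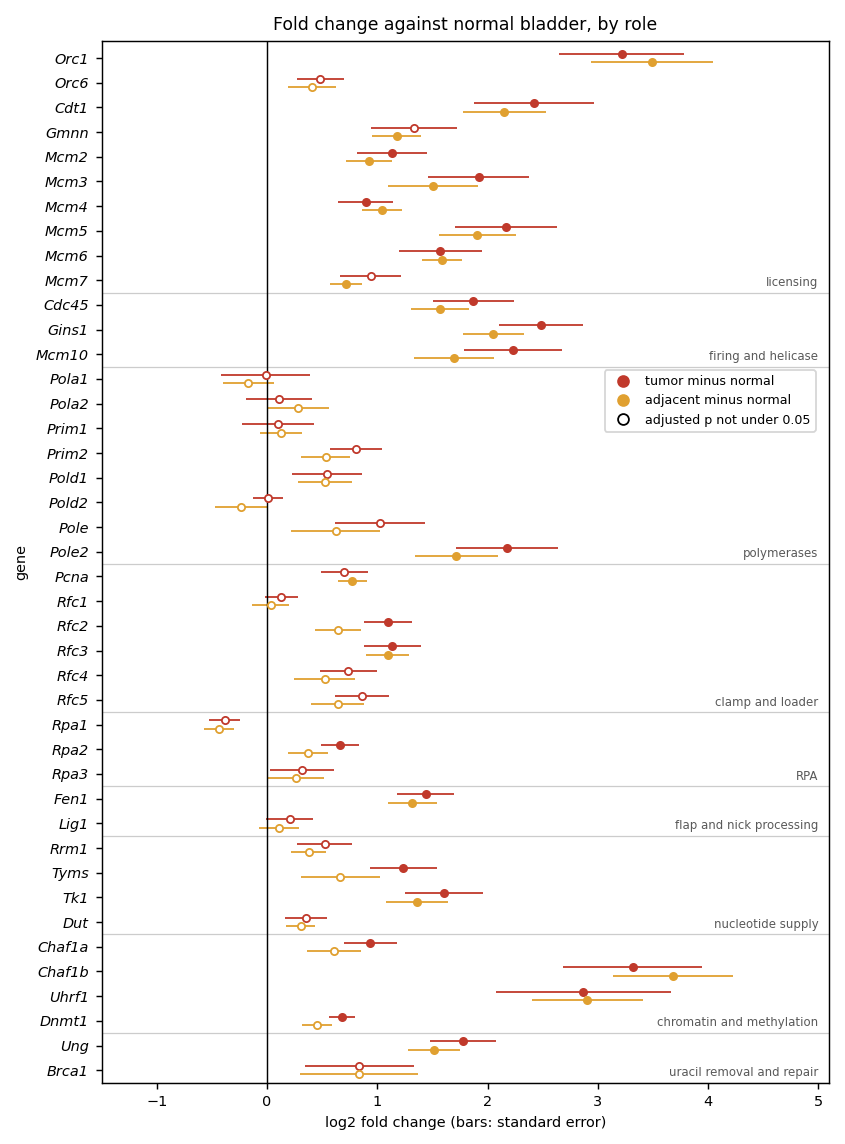
Log2 fold change of each measured member against normal bladder, by role, for tumors (red) and adjacent tissue (orange), with bars for the standard error and filled points for an adjusted p under 0.05. Filled points crowd the licensing and firing genes, whereas of the 8 polymerase and primase genes Pole2 alone is filled. Orc1 and Chaf1b were dim in normal bladder and Brca1 was dim on every array, so the sizes plotted for these 3 genes are uncertain.

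The 3 measured genes of origin firing all rose in both tissues. Gins1, a subunit of the GINS complex, had log2 signals of 7.59, 8.99 and 8.74 in tumors, 7.73, 8.38 and 7.90 in adjacent tissues and 5.83, 5.88 and 6.15 in normal bladders. The gap between the lowest tumor-bearing sample and the highest normal bladder was wider than the whole range of the normal bladders. Gins1 was 5.60-fold higher in tumors (log2 fold change 2.48, SE 0.38, adjusted p = 0.00817) and 4.15-fold higher in adjacent tissue (2.05, SE 0.28, adjusted p = 0.00282). Mcm10, which helps to start the helicase, stood at 6.90, 8.54 and 8.01 in tumors, 6.89, 7.85 and 7.12 in adjacent tissues and 5.56, 5.28 and 5.92 in normal bladders, a rise of 2.23 (SE 0.44, adjusted p = 0.0175) and 1.70 (SE 0.36, adjusted p = 0.0160). Cdc45, the helicase cofactor, stood at 8.01, 9.30 and 9.14 in tumors, 8.21, 8.49 and 8.85 in adjacent tissues and 6.60 to 7.23 in normal bladders, a rise of 1.87 (SE 0.37, adjusted p = 0.0166) and 1.57 (SE 0.26, adjusted p = 0.00630). By these probe sets, tumor 1 was below the other tumors in both genes and still above the normal bladders. A second, dimmer Mcm10 probe set had 5.38 in tumor 1 and 5.41 in adjacent tissue 1, under the 5.45 of normal bladder 1. Its other tumor and adjacent arrays lay above all normal bladders. The 4 probe sets of Cdc45 did not all move: 2 that were dim in all normal bladders were at least 3.43-fold and at least 2.15-fold higher in tumors, and 1 that was dim in all groups passed in neither tissue.

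Of the 8 measured polymerase and primase genes, 1 (12.5%) rose in each tissue, a share near that of all genes (13.6% in tumors and 13.3% in adjacent tissue). In both cases it was Pole2, an accessory subunit of the leading-strand polymerase epsilon. Its log2 signals were 7.19, 8.60 and 8.25 in tumors, 7.24, 7.88 and 7.55 in adjacent tissues and 5.67, 5.33 and 6.52 in normal bladders, with no overlap between either tissue and normal bladder. Pole2 rose by 2.17 in tumors (SE 0.46, adjusted p = 0.0213) and by 1.72 in adjacent tissue (SE 0.38, adjusted p = 0.0181). Pole, the catalytic subunit of the same enzyme, had differences of 1.03 (SE 0.41, adjusted p = 0.130) and 0.62 (SE 0.41, adjusted p = 0.342) that did not pass. Pola1, the catalytic subunit of polymerase alpha, had log2 signals of 7.36, 8.79 and 8.64 in tumors, 8.09, 8.13 and 8.10 in adjacent tissues and 7.82, 8.53 and 8.48 in normal bladders. The normal bladders lay inside the range of the tumors, and the difference was -0.01 in tumors (SE 0.40, adjusted p = 0.988) and -0.17 in adjacent tissue (SE 0.23, adjusted p = 0.673).

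The remaining polymerase and primase genes had differences from 0.01 to 0.81 in tumors and from -0.24 to 0.53 in adjacent tissue. Prim1, the small primase subunit, had 0.10 in tumors (SE 0.33) and 0.13 in adjacent tissue (SE 0.19), and its partner Prim2 had 0.81 (SE 0.24, adjusted p = 0.0555) and 0.53 (SE 0.22, adjusted p = 0.145). Pola2, the second subunit of polymerase alpha, had 0.11 (SE 0.30) and 0.29 (SE 0.27). For the lagging-strand polymerase delta, the catalytic subunit Pold1 had 0.54 (SE 0.32) and 0.52 (SE 0.24), and Pold2 had 0.01 (SE 0.13) and -0.24 (SE 0.24). With standard errors of this size, 3 arrays per group could not exclude moderate changes of these genes.

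**Figure D3:**
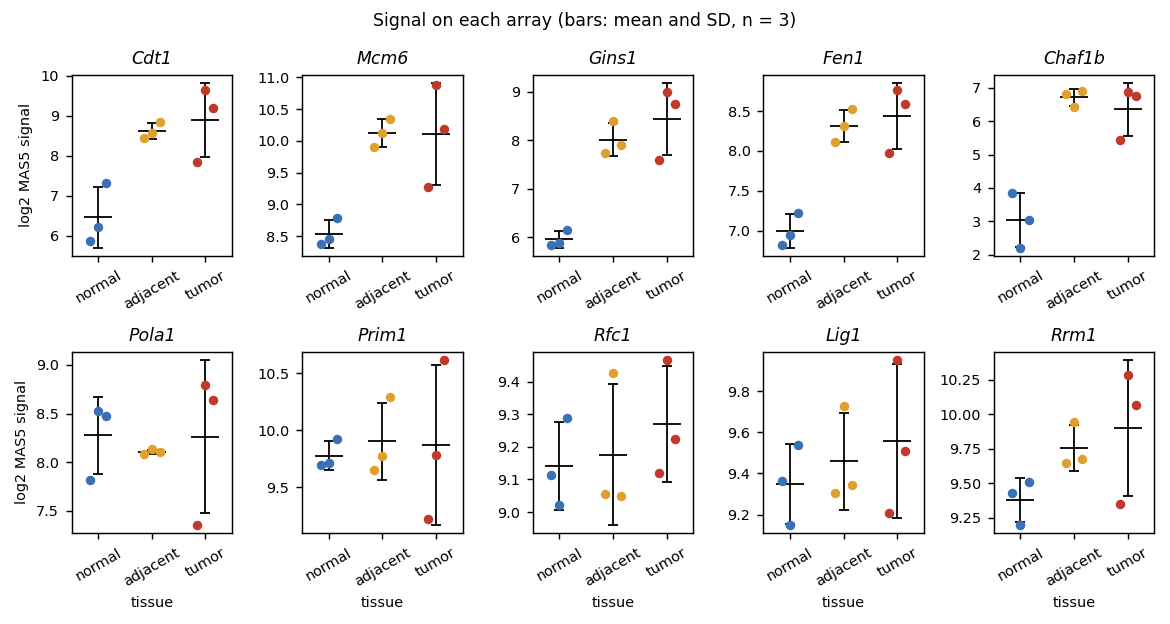
Log2 MAS5 signal of 10 members, picked as examples, on each array (points), with the mean and SD of each tissue (n = 3), each gene on its own scale. In the upper row (Cdt1, Mcm6, Gins1, Fen1 and Chaf1b) the tumor and adjacent arrays lie above the normal arrays. In the lower row (Pola1, Prim1, Rfc1, Lig1 and Rrm1) tumors and normal bladders overlap, while the adjacent arrays of Rrm1 all lie above its normal arrays.

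Of the clamp Pcna and the 5 subunits of its loader, 2 rose in each tissue. Rfc3 stood at 8.62, 9.53 and 9.21 in tumors, 8.93 to 9.31 in adjacent tissues and 7.83, 7.89 and 8.25 in normal bladders, a rise of 1.14 in tumors (SE 0.26, adjusted p = 0.0261) and 1.09 in adjacent tissue (SE 0.20, adjusted p = 0.00833). Rfc2 had 9.45, 9.87 and 9.52 in tumors, 9.07, 9.15 and 9.26 in adjacent tissues and 8.64, 8.79 and 8.12 in normal bladders. Its 3 groups did not overlap with each other, and Rfc2 rose by 1.10 in tumors (SE 0.21, adjusted p = 0.0166) while its difference of 0.65 in adjacent tissue did not pass (SE 0.21, adjusted p = 0.0668). Rfc1, the large subunit, had 9.12, 9.47 and 9.22 in tumors and 9.11, 9.02 and 9.29 in normal bladders, which overlapped (log2 fold change 0.13, SE 0.15, adjusted p = 0.606), and 0.03 in adjacent tissue (SE 0.17, adjusted p = 0.917). Rfc4 had 0.73 in tumors and 0.52 in adjacent tissue and passed in neither (adjusted p = 0.0937 and 0.237). Rfc5 just missed the threshold in tumors (0.86, SE 0.24, adjusted p = 0.0508), while its second probe set passed in both tissues (1.06, adjusted p = 0.00469, and 0.99, adjusted p = 0.0334).

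Pcna, the sliding clamp that holds polymerase delta on the template, stood at 11.86, 12.50 and 12.66 in tumors, 12.23, 12.45 and 12.55 in adjacent tissues and 11.54, 11.78 and 11.59 in normal bladders. Both tissues lay above normal bladder without overlap. The difference passed in adjacent tissue (0.77, SE 0.13, adjusted p = 0.00703) and not in tumors, whose spread was larger (0.70, SE 0.21, adjusted p = 0.0614).

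The subunits of replication protein A (RPA), which coats single-stranded DNA, differed in sign. Rpa1, its large subunit, had log2 signals of 9.61, 9.59 and 9.91 in tumors, 9.72, 9.73 and 9.51 in adjacent tissues and 10.04, 10.00 and 10.23 in normal bladders. It was the 1 member whose tumor arrays all lay below its normal arrays, and its differences of -0.39 in tumors (SE 0.14, adjusted p = 0.102) and -0.44 in adjacent tissue (SE 0.14, adjusted p = 0.0661) did not pass, although the latter did after quantile normalization. Rpa2 stood at 8.97, 9.24 and 9.34 in tumors, 8.72, 8.91 and 9.03 in adjacent tissues and 8.45, 8.35 and 8.75 in normal bladders. Rpa2 rose by 0.66 in tumors (SE 0.17, adjusted p = 0.0392), whereas the adjacent and normal arrays overlapped (0.37, SE 0.18, adjusted p = 0.206). Rpa3 had 0.32 (SE 0.29) and 0.27 (SE 0.25) and did not pass.

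The 2 enzymes that finish the lagging strand differed in their calls. Fen1, the nuclease that trims the flap ahead of the polymerase, stood at 7.97, 8.76 and 8.58 in tumors, 8.12, 8.31 and 8.52 in adjacent tissues and 6.82, 6.95 and 7.23 in normal bladders. All 6 arrays of tumor-bearing rats lay above the normal ones, and Fen1 rose by 1.44 in tumors (SE 0.26, adjusted p = 0.0127) and by 1.32 in adjacent tissue (SE 0.22, adjusted p = 0.00653). Lig1, the ligase that seals the remaining nick, stood at 9.21, 9.95 and 9.51 in tumors and 9.36, 9.15 and 9.54 in normal bladders, which overlapped (0.20, SE 0.21, adjusted p = 0.554), and had 0.11 in adjacent tissue (SE 0.18, adjusted p = 0.734). The difference between the changes of Fen1 and Lig1 was not tested.

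Among the 4 measured genes of nucleotide supply, the 2 of thymidylate synthesis rose in tumors and the others did not pass. Tk1, the thymidine kinase of S phase, stood at 8.28, 9.53 and 8.64 in tumors, 8.49, 8.98 and 8.25 in adjacent tissues and 6.79, 7.30 and 7.55 in normal bladders, and rose by 1.60 (SE 0.36, adjusted p = 0.0247) and 1.36 (SE 0.28, adjusted p = 0.0146). A second Tk1 probe set rose by 1.64 and 1.24 as well, and the last, dimmer one had 0.12 and 0.63 and did not pass. Tyms, which makes thymidylate from deoxyuridylate, stood at 7.37, 8.34 and 7.75 in tumors and 6.37, 6.49 and 6.89 in normal bladders and rose by 1.24 (SE 0.31, adjusted p = 0.0338). Adjacent tissues 1, 2 and 3 had 6.76, 7.94 and 7.06 for Tyms and overlapped with normal bladder (0.67, SE 0.36, adjusted p = 0.253). Rrm1, the large subunit of ribonucleotide reductase, had 9.35, 10.29 and 10.07 in tumors and 9.43, 9.20 and 9.51 in normal bladders, so that tumor 1 lay within the normal range (0.52, SE 0.25, adjusted p = 0.193). In adjacent tissues Rrm1 had 9.64, 9.95 and 9.68, all above normal bladder, and did not pass (0.38, SE 0.16, adjusted p = 0.142). Dut, which removes dUTP, had 0.35 in tumors (SE 0.19, adjusted p = 0.245) and 0.31 in adjacent tissue (SE 0.13, adjusted p = 0.154).

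Genes that restore chromatin and DNA methylation behind the fork rose in the tumors, 4 of 4, and 2 of the 4 rose in adjacent tissue. Chaf1b, a subunit of the histone chaperone CAF-1, stood at 5.44, 6.88 and 6.74 in tumors, 6.81, 6.44 and 6.91 in adjacent tissues and 3.86, 2.21 and 3.04 in normal bladders. All normal arrays and tumor 1 were dim, and Chaf1b was at least 1.64-fold higher in tumors (adjusted p = 0.0152) and at least 2.10-fold higher in adjacent tissue (adjusted p = 0.00406). Chaf1a, its partner in CAF-1, rose by 0.94 in tumors (SE 0.24, adjusted p = 0.0386) and had 0.61 in adjacent tissue (SE 0.24, adjusted p = 0.130). Uhrf1, which finds hemimethylated DNA and guides Dnmt1 to it, stood at 6.43, 9.52 and 8.96 in tumors, 7.39, 8.67 and 8.96 in adjacent tissues and 5.43, 4.75 and 6.13 in normal bladders. It had the widest spread among tumors of the 42 members (SD 1.65), with tumor 1 only just above the highest normal bladder, and rose by 2.87 (SE 0.80, adjusted p = 0.0478) and 2.91 (SE 0.50, adjusted p = 0.00720). Dnmt1, the maintenance methyltransferase, had a small spread, with 9.76, 9.68 and 9.71 in tumors, 9.52, 9.50 and 9.46 in adjacent tissues and 8.92, 9.06 and 9.12 in normal bladders. Its groups did not overlap with each other, and it rose by 0.68 in tumors (SE 0.12, adjusted p = 0.0125), while its difference of 0.45 in adjacent tissue missed the threshold (SE 0.14, adjusted p = 0.0555). That difference passed under several other settings, among them quantile normalization, median centring and a joint fit of all 9 arrays. It did not pass with any 1 array left out.

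Ung, which removes uracil that polymerases have put into DNA, stood at 9.17, 10.04 and 9.79 in tumors, 9.32, 9.38 and 9.50 in adjacent tissues and 7.80, 7.50 and 8.36 in normal bladders. Without overlap, Ung was 3.43-fold higher in tumors (log2 fold change 1.78, SE 0.30, adjusted p = 0.0104) and 2.85-fold higher in adjacent tissue (1.51, SE 0.24, adjusted p = 0.00488). Brca1, which protects stalled forks, was dim on every array, at log2 signals from 3.77 to 5.33, so no fold is given (adjusted p = 0.294 and 0.333).

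Across the roles, 17 members passed in both comparisons with normal bladder, 5 in tumors only by this count (Rfc2, Rpa2, Tyms, Chaf1a and Dnmt1), 3 in adjacent tissue only (Gmnn, Mcm7 and Pcna) and 17 in neither. These counts do not show that the tissues differ, since a gene can pass in one and just miss in the other. In tumors the members nearest the threshold were Mcm4 (adjusted p = 0.0480) and Uhrf1 (0.0478) inside it and Rfc5 (0.0508) and Gmnn (0.0549) outside it. E2F words stood in 12 of the 20 windows of members that rose in tumors (60.0%) and in 5 of the 19 of members that did not pass (26.3%). CCAAT boxes stood in 60.0% and 68.4% of the same windows. The shares of E2F words are given as a description, with no test, and the windows without one include those of Cdc45, Fen1 and Tk1, all of which rose.

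Between the tumors and the adjacent tissue of the same rats, no member passed the test. By limma 0 of 42 members and 0% of all 14217 genes passed, and the adjusted p was 0.9997 for 41 members and 0.9999 for Brca1, which was dim throughout. At an unadjusted p under 0.05 there was 1 member, Rfc2 (0.45 higher in tumors, SE 0.19), and by the methods' t-test after Benjamini-Hochberg adjustment there were 0. The differences of the 42 members ranged from -0.36 (Chaf1b) to 0.57 (Tyms) on the log2 scale, with 40 of them under 0.5 in size, and their standard errors from 0.15 to 0.80 with a median of 0.30. A difference of that size would not be separated from the replicate spread for most members. For Rfc2, Chaf1a (0.33, SE 0.22) and Dnmt1 (0.23, SE 0.15), every tumor array lay above every adjacent array, 3 of 42 members (7.14%), where 4.1% of all genes did so. Fitting the replicate number as a block left the count at 0.

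The level of the replication genes varied from array to array in both tissues. Relative to the mean of the normal bladders, the median difference over the 42 members was 0.55, 1.35 and 1.07 on the log2 scale in tumors 1, 2 and 3, 0.57, 0.80 and 0.88 in adjacent tissues 1, 2 and 3, and -0.10, -0.10 and 0.24 in normal bladders 1, 2 and 3. Tumor 1 and adjacent tissue 1 were thus the lowest of their groups. Tumor 1 was the lowest tumor for 38 of the 42 members, and adjacent tissue 1 was the lowest adjacent sample for 28. The number of members above the highest normal bladder was 29, 38 and 38 in the tumors and 30, 36 and 35 in the adjacent tissues. For these counts by array the shares of all genes were not computed, so they describe the members only.

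Markers of several cell types also differed from normal bladder, and not all lists followed the replication genes from array to array. Adjacent tissue 3, for example, had the highest median of the replication genes in its group (0.88) and the lowest epithelial sum (132%). The summed signal of 12 smooth muscle markers was 71.1%, 8.61% and 6.67% of the normal mean in tumors 1, 2 and 3 and 36.4%, 13.7% and 7.50% in adjacent tissues 1, 2 and 3, so that the samples with the lowest replication genes held the most smooth muscle RNA. By limma, 4 of these markers fell in tumors and 12 in adjacent tissue, beside 9.95% and 11.5% of all genes. Their median log2 fold change was -3.79 in tumors and -3.12 in adjacent tissue, so the smaller count in tumors did not mean a smaller fall. The 10 measured epithelial markers stood at 150%, 193% and 162% of the normal mean in tumors and 144%, 156% and 132% in adjacent tissues. Of these, 7 rose in each tissue (13.6% and 13.3% of all genes), and Krt18 fell in adjacent tissue (log2 fold change -1.08). The 5 umbrella cell markers (uroplakins and Krt20) went the other way, at 90.9%, 73.7% and 63.4% in tumors and 89.6%, 99.35% and 49.8% in adjacent tissues. Of the 5, 0 rose in either tissue, and 2 fell in tumors and 1 in adjacent tissue, beside 9.95% and 11.5% of all genes. The 10 measured leukocyte markers summed to signals of 15006 to 18320 in tumors, 16342 to 30392 in adjacent tissues and 7291 to 8913 in normal bladders, with Cd79b dim on every array. Lyz2 was the brightest of them on every array, so these sums follow it most. Of the 10, 4 rose in tumors and 6 in adjacent tissue, beside 13.6% and 13.3% of all genes. Cd3g lay below every normal array in the tumors (log2 signals of 7.07 to 8.07 against 8.15 to 8.40). The 6 fibroblast markers summed to 8179 to 77101 in tumors, 22890 to 64222 in adjacent tissues and 97503 to 100993 in normal bladders. No marker of these lists was at 0 on every array of a group. The part of these shifts in the changes of the replication genes was not tested. In whole tissue, fewer cells of a type and less RNA per cell cannot be told apart. The adjacent tissue, labelled normal, differed from normal bladder in the same direction as the tumors in these sums. Between tumors and adjacent tissue no marker passed. The median log2 difference was -1.09 for fibroblast, -0.65 for leukocyte, -0.50 for smooth muscle and 0.09 for epithelial markers. The 6 proliferation markers rose in both tissues, with sums of 1898 to 4253 in tumors, 1626 to 3793 in adjacent tissues and 310 to 470 in normal bladders.

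**Figure D4:**
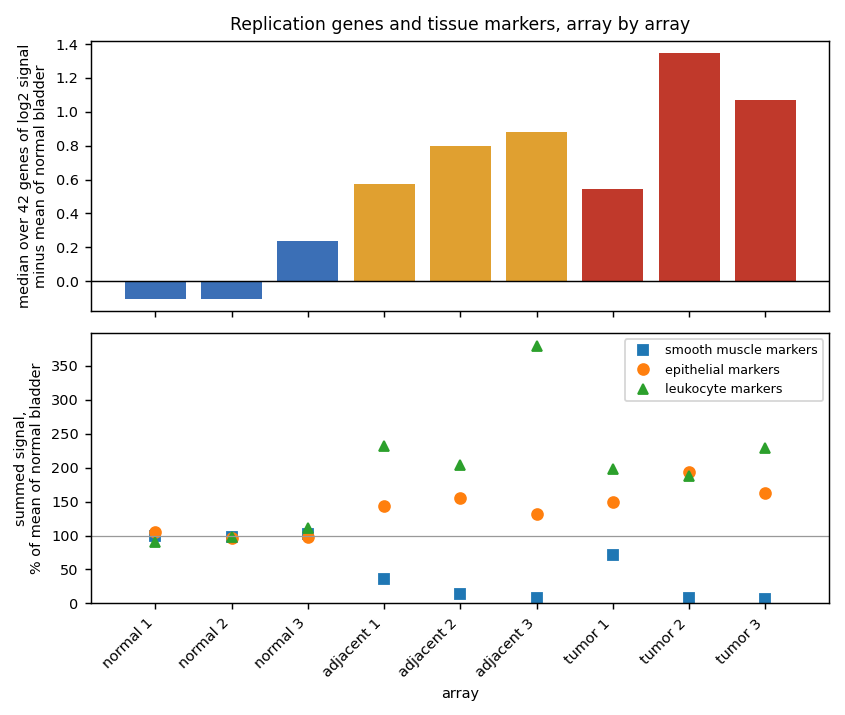
Upper panel, the median over the 42 members of log2 signal minus the mean of normal bladder, 1 bar per array. Lower panel, the summed signal of smooth muscle, epithelial and leukocyte markers on the same arrays as a percentage of the normal mean, with tumor 1 at 71.1% and adjacent tissue 1 at 36.4% for smooth muscle, the highest of their groups.

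The calls varied with single arrays. Without tumors 1, 2 and 3 in turn, 33, 9 and 5 members were higher in tumors, and without normal bladders 1, 2 and 3, 3, 2 and 7 were. Over all genes the number higher went from 1927 to 2907, 1305 and 995 without each tumor and to 618, 585 and 678 without each normal bladder. Gins1 alone kept its call without any 1 of the 6 arrays (adjusted p up to 0.0452), and each of the other 21 calls was lost without at least 1 array. In adjacent tissue, 21, 17 and 19 members were higher without adjacent tissues 1, 2 and 3, and 14, 14 and 19 without normal bladders 1, 2 and 3, while over all genes the number higher went from 1895 to 2217, 1545 and 1912 and to 865, 848 and 921. There, 14 members kept their call without any 1 of the arrays, among them Orc1, Cdt1, Mcm4, Mcm5, Mcm6, Cdc45, Gins1, Pcna, Fen1, Uhrf1 and Ung. By the methods' t-test after Benjamini-Hochberg adjustment, 1 member was higher in tumors and 8 were higher in adjacent tissue. Centring each array on its median raised the median of all genes from 0.05 to 0.25 in tumors and from 0.01 to 0.21 in adjacent tissue, and that of the members from 0.94 to 1.14 and from 0.69 to 0.89. With centring 25 and 26 members were higher, and the split of all genes into higher and lower moved from 1927 and 1414 to 2504 and 1090 in tumors, and from 1895 and 1636 to 3012 and 1308 in adjacent tissue.

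**Figure D5:**
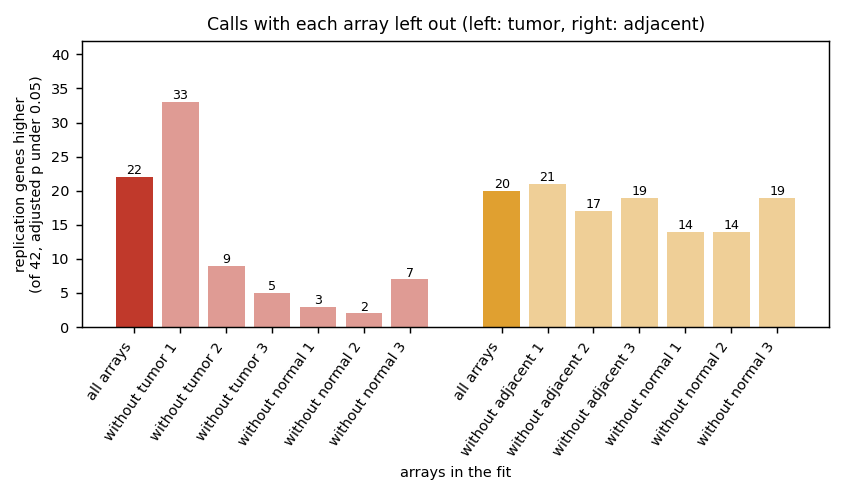
Number of the 42 members higher than in normal bladder (adjusted p under 0.05) with all arrays and with each array left out in turn, for tumors on the left and adjacent tissue on the right. Bars for tumors run from 2 to 33 and bars for adjacent tissue from 14 to 21.

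Other genes of replication and nucleotide synthesis were counted from a list of 71, of which 62 were measured and none is a member. In tumors 19 rose (30.6%) and 2 fell (3.23%), beside 13.6% and 9.95% of all genes. In adjacent tissue 22 rose (35.5%) and 1 fell (1.61%), beside 13.3% and 11.5%, and 0 passed between tumors and adjacent tissue. The median log2 fold change was 0.54 in both comparisons with normal bladder, against 0.05 in tumors and 0.01 in adjacent tissue for all genes. Asf1b, a chaperone that hands histones to CAF-1, was at least 3.26-fold higher in tumors (adjusted p = 0.00678) and at least 2.20-fold higher in adjacent tissue (adjusted p = 0.00464). Wdhd1, which ties polymerase alpha to the helicase, rose by 1.62 in tumors (SE 0.30, adjusted p = 0.0139) and by 1.38 in adjacent tissue (SE 0.28, adjusted p = 0.0138). Enzymes of purine and pyrimidine synthesis, named here after their values were seen, differed in their calls. Atic rose by 0.82 in tumors and 0.74 in adjacent tissue and Dhodh by 1.13 and 1.15, while Ctps1 (-0.07 and 0.09), Prps1 (-0.44 and -0.43) and Ppat (0.07 and 0.07) passed in neither tissue. Mthfd2, a mitochondrial enzyme of one-carbon supply, rose by 1.56 in tumors (SE 0.25, adjusted p = 0.00935) and by 2.36 in adjacent tissue (SE 0.32, adjusted p = 0.00307). Pold4, a small subunit of polymerase delta, fell in both tissues, with log2 fold changes of -0.59 in tumors (SE 0.14, adjusted p = 0.0297) and -0.67 in adjacent tissue (SE 0.16, adjusted p = 0.0269). Orc4, another ORC subunit, fell by 0.65 in tumors (SE 0.13, adjusted p = 0.0169). In adjacent tissue Orc4 had 9.59, 9.70 and 8.92 against 10.03 to 10.11 in normal bladders, and its difference of -0.67 did not pass. With arrays centred on their medians, 0 of these genes were lower in either tissue.

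Among 26 measured regulators of the passage from G1 to S phase, 6 rose (23.1%) and 2 fell (7.69%) in tumors, beside 13.6% and 9.95% of all genes, and 8 rose (30.8%) and 1 fell (3.85%) in adjacent tissue, beside 13.3% and 11.5%. Those named here were picked after their values were seen. Ccna2, the cyclin of S phase, had log2 signals of 8.28, 9.77 and 9.87 in tumors, 8.59, 9.04 and 9.65 in adjacent tissues and 5.75, 5.45 and 5.40 in normal bladders. It rose by 3.77 (SE 0.43, adjusted p = 0.00386) and 3.56 (SE 0.31, adjusted p = 0.000732), without overlap. Ccne1, the cyclin that precedes it, rose by 1.97 and 2.06 (adjusted p = 0.0135 and 0.0111), and Cdk4, the kinase of early G1, by 0.83 and 0.69 (adjusted p = 0.0338 and 0.0466). E2f8, a repressor of the E2F family, was at least 3.29-fold higher in tumors and at least 2.92-fold higher in adjacent tissue (adjusted p = 0.0166 and 0.0142). Tfdp2, a dimer partner of E2F factors, fell in both tissues, with log2 fold changes of -2.17 in tumors (SE 0.17, adjusted p = 0.00161) and -2.43 in adjacent tissue (SE 0.33, adjusted p = 0.00286). Rb1, the retinoblastoma gene that restrains E2F, fell by 0.73 in tumors (SE 0.16, adjusted p = 0.0230). In adjacent tissue Rb1 had 9.55, 9.68 and 9.75 against 9.87 to 10.29 in normal bladders and did not pass.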

How the data were processed

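RNA of 9 rat bladder samples (3 tumors, 3 ANT, 3 normal bladders) was labelled by 3' in vitro transcription and hybridised to Affymetrix arrays by the authors. The deposited values are log2 signals that the authors made with the MAS5 algorithm, with the linear signal (trimmed by 2% at each end) scaled to about 500.2 on each array. They were used as given. The 57 array controls were left out, leaving 31042 probe sets, of which 20826 name 1 gene (14217 genes), 436 several and 9780 none.

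For each comparison, only its 6 arrays were fitted, with limma 3.58.1 in R 4.3.3 (lmFit, eBayes with a trend), with Benjamini-Hochberg adjustment over all tested probe sets and a threshold of 0.05. For a gene with all arrays of its lower group under a signal of 50, a limit set after looking at the spread, the fold is a lower bound, taken against that limit. The 3 arrays per group limit the precision. The fit was run on simulated data with limits on the error and sign of fold changes, and none on missed or false calls.

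The members, the lists and the rule for named genes were chosen with earlier results of these data known. By the rule, each role gives the 2 largest changes past the threshold in tumors against normal bladder and the member with the largest p, and to these come members that passed in 1 tissue only (the 3 with the largest difference), members whose probe sets disagreed and members dim on all arrays. Further members were described to account for their role. Tumors and ANT come from the same 3 rats by the series design. The labels do not say that equal numbers mark 1 rat, but deviations of same-numbered arrays correlated at 0.50, 0.12 and 0.36 over 21176 probe sets. Of the pairs with unequal numbers, 5 lay under 0 and tumor 2 with ANT 3 at 0.25. Deviations within a group sum to 0, so negative values among unequal pairs are partly built in, and these correlations do not settle the pairing. The numbers were taken as pairs for the replicate block, and nothing turned on it (0 members passed either way).

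Alternatives were quantile normalization, median centring, a filter at the 40th percentile, 50 added before log2 and a joint fit of the 9 arrays. Others were a replicate block, each array left out in turn and averaging over a gene's probe sets. The methods' t-test was used with a fold of 2 and in an adjusted form. Promoters were taken from RefSeq (GRCr8). Probe-level files, cell line experiments and human tissues of the study were not used here.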

Additional observations from a re-analysis of the deposited data

Results flagged for a closer look

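The 2 probe sets annotated to both Rrm2l1 and Rrm2 were not used in any count above, because they name 2 genes, and both carried a signal above that of normal bladder. Rrm2 encodes the small subunit of ribonucleotide reductase. The brighter probe set had log2 signals of 10.42, 11.20 and 11.43 in tumors, 10.30, 11.05 and 11.68 in ANT and 6.36, 6.26 and 7.22 in normal bladders. Its log2 fold change was 4.41 in tumors (SE 0.35, adjusted p = 0.00161 by limma) and 4.40 in ANT (SE 0.39, adjusted p = 0.000748). The dimmer one had a fitted log2 fold change of 5.31 in tumors and 5.58 in ANT, and since it was dim in all normal bladders it was at least 2.33-fold and at least 2.79-fold higher. Which of the 2 genes gave the signal cannot be told from these probe sets.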

How the results depend on the processing

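Between tumors and ANT, 0 members passed under each of the alternatives, and no call reversed under any alternative. Of 1095 recomputed values of 23 named members, 972 kept their direction and side of the threshold or changed sign without passing on either side (40), 119 no longer passed and 4 newly passed. The adjusted t-test was entered 2 times in this tally. Against the 22 members higher in tumors, 1 (Dnmt1) was higher by the adjusted methods' t-test, and leaving out 1 array gave 2 to 33. Against the 20 members higher in ANT, these settings gave 8 and 14 to 21. The median of the members in ANT was 0.89 with centring and 0.67 to 0.86 with 1 array left out. Rpa1 was the 1 member lower in ANT after quantile normalization and when probe sets of a gene were averaged. Of the other replication genes, 19 were higher in tumors. By the methods' t-test at a fold of 2 there were 9, by its adjusted form 9, and with 1 array left out 4 to 31. The 2 that were lower in tumors became 0 with centring, with the replicate block and by the t-test at a fold of 2. They became 1 in the fit of all 9 arrays and by the adjusted t-test, and 0 to 3 with 1 array left out. In ANT, 22 were higher, 36 with centring, 8 and 11 by the t-tests and 7 to 29 with 1 array left out. The 1 that was lower in ANT became 2 after quantile normalization, 0 with centring and by both t-tests, and 0 to 2 with 1 array left out. By the t-test at a fold of 2, 1 was lower in tumors than in ANT. The cause of these shifts was not tested. For tumors and ANT against normal bladder, equal numbers mark different rats (correlations of deviations from -0.06 to 0.04), and the replicate block gave 18 and 20 members, all among the 22 and 20. Few arrays and a wide spread at low signal limit what can be seen.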
